A study of Homo sapiens with 8 samples.

Results

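The 10 tubulin genes described here encode 3 alpha-tubulins (TUBA1A, TUBA1B, TUBA1C), 6 beta-tubulins (TUBB, TUBB2A, TUBB2B, TUBB3, TUBB4B, TUBB6) and the gamma-tubulin TUBG1. They were taken by symbol from a table of 60651 genes, each symbol matched 1 row, and all 10 were above the minimum of a mean of 1 TPM used for testing. The table holds ribosome profiling values (Ribo-seq, sequencing of the mRNA fragments that ribosomes protect from nuclease) in TPM, a level scaled for transcript length and to the same sum in every library. The cells were IMR32, an established human neuroblastoma line with amplified MYCN, labelled wild type in genotype. Cells of 4 libraries had received CR31B, a silvestrol analogue of the rocaglate class that acts on the RNA helicase eIF4A, and cells of the other 4 had received the solvent DMSO. Treatment lasted 6 h in both groups, and cycloheximide was added to both before harvest. The series calls the replicates biological, and no matched RNA-seq was analysed here. A footprint level can differ through the amount of mRNA or the number of ribosomes on it, and in these bulk libraries neither those nor fewer cells and less RNA per cell can be told apart.

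Alpha- and beta-tubulin form the heterodimers from which microtubules are built, and gamma-tubulin sits in the ring complexes that start new microtubules. Vertebrates express several isotypes of each class from separate genes, which differ mostly at the carboxy-terminal tail, and TUBB3 and TUBB2B are isotypes typical of neurons. Cells also regulate tubulin through its own mRNA: when free heterodimer is abundant, the factor TTC5 recognises the start of nascent alpha- and beta-tubulin on the ribosome and the mRNA is degraded through SCAPER and the CCR4-NOT deadenylase. Rocaglates clamp eIF4A onto purine-rich RNA, which blocks scanning through some mRNA leaders.

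The start of the coding sequence is shown first because it encodes the stretch read in that regulation, which lies in the first 12 coding bases of the alpha and beta genes, given here in capitals; TUBG1 is shown in lower case throughout. The sequences are from GENCODE release 29 transcripts on GRCh38, coding positions 1 to 30, 5′ to 3′.
TUBA1A: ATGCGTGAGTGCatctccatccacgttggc
TUBA1B: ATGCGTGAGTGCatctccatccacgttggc
TUBA1C: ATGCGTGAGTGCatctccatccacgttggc
TUBB: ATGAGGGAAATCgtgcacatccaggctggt
TUBB2A: ATGCGCGAGATCgtgcacatccaggcgggc
TUBB2B: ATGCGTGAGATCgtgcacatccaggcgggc
TUBB3: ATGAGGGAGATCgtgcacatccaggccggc
TUBB4B: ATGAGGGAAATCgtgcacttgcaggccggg
TUBB6: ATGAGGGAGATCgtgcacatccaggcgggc
TUBG1: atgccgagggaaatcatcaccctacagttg
The 3 alpha genes were identical over all 30 bases, so a footprint there cannot be given to one of them. TUBB and TUBB4B, the pair on which the results below turn, had the same first 12 bases and differed after them.

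The isotypes are near copies of each other, and this sets how far their separate values can be read. Each coding sequence was cut into all its overlapping windows of 28 nt, the lower end of the fragment length the authors selected, and each window was searched for exact copies in the transcripts of other genes. TUBB6 had the highest share of windows found in no other gene, at 87.1%, followed by TUBB4B at 72.0%, TUBG1 at 50.6% and TUBB at 39.1%. The share was 24.5% in TUBA1A, 24.5% in TUBA1C, 18.2% in TUBB2B, 15.3% in TUBB2A and 11.96% in TUBA1B. In TUBB3 it was 2.41%, because 95.9% of its windows also lie in an annotated readthrough gene (ENSG00000198211.8), whose mean over the 8 libraries was 0.001 TPM. TUBA1A and TUBA1B had 97.2% identical coding nucleotides, and TUBB2A and TUBB2B had 98.1%. TUBB and TUBB4B had 84.4%.

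**Figure D1:**
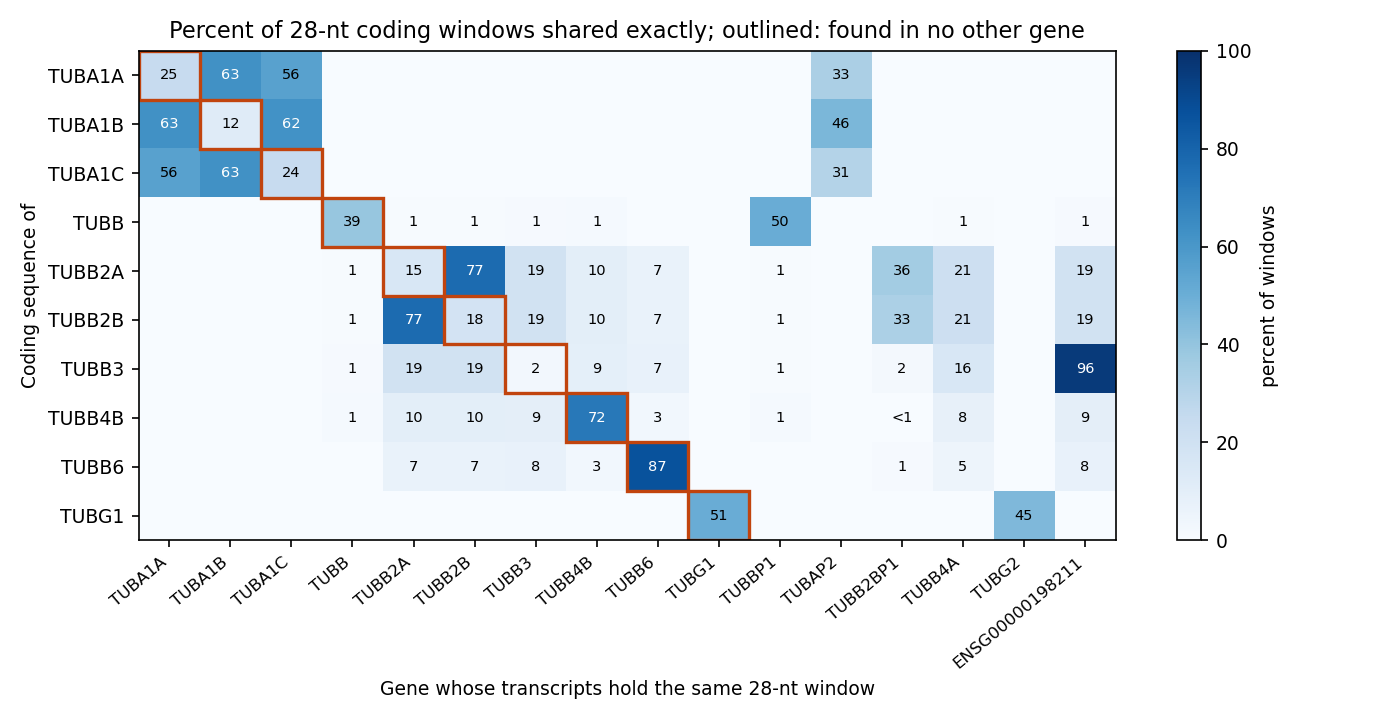
Percent of the 28-nt windows of each coding sequence (rows) that occur exactly in transcripts of another gene (columns); the outlined diagonal gives the percent found in no other gene, and empty cells are 0. The alpha genes and the pair TUBB2A and TUBB2B share most of their windows, whereas TUBB and TUBB4B share 1.22% of the TUBB windows.

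Of the 1308 TUBB windows, 16 were found in TUBB4B, so these genes are largely separable from each other at footprint length. TUBB shared more with pseudogenes: 50.5% of its windows occur in TUBBP1. The stretch below is where TUBB and TUBB4B differ most, coding bases 933 to 960 in the 6 beta genes, with bases that differ from TUBB in capitals.
TUBB: caccgtggctgctgtcttccgtggtcgg
TUBB2A: GacGgtggctgcCAtcttccgGggCcgC
TUBB2B: GacGgtggctgcCAtcttccgGggCcgC
TUBB3: GacGgtggcCAcCgtGttccgGggCcgC
TUBB4B: GacGgtTgcCgcCgtGttcAgGggCcgC
TUBB6: GaccgtggcCAcCgtGttccgCggGcCC
Here TUBB4B had 18 of 28 bases in common with TUBB, whereas TUBB2A and TUBB2B were identical to each other. At coding bases 1198 to 1225 the opposite held, and the window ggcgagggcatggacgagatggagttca was the same in TUBB, TUBB2A, TUBB2B, TUBB3 and TUBB4B. TUBB6 differed from it at 3 positions, again in capitals: ggTgagggcatggaTgaAatggagttca.

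The last 30 coding bases before the stop codon encode the end of the tail, the region in which isotypes are told apart most easily, and are shown for the beta genes.
TUBB: gatttcggtgaggaggccgaagaggaggcc
TUBB2A: ttcgaggaggaggagggcgaggacgaggct
TUBB2B: ttcgaggaggaggagggcgaggacgaggcg
TUBB3: gaggaggagtcggaggcccagggccccaag
TUBB4B: ttcgaggaggaggctgaggaggaggtggcc
TUBB6: tttgaggatgaggaagaggagatcgatgga
Each gene had its own sequence there, and TUBB2A and TUBB2B differed only in the last base.

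The genes lie at separate loci or in small clusters (GRCh38, GENCODE release 29, all annotated protein-coding). The alpha genes are neighbours on chromosome 12: TUBA1B at chr12:49127782-49131397 and TUBA1A at chr12:49184796-49189324 on the minus strand, and TUBA1C at chr12:49188736-49274603 on the plus strand, where its start overlaps that of TUBA1A. On chromosome 6 lie TUBB2A (chr6:3153669-3157526, minus), TUBB2B (chr6:3224261-3231730, minus) and TUBB (chr6:30720201-30725426, plus). The others are on the plus strand: TUBB3 at chr16:89921392-89938761, TUBB4B at chr9:137241213-137243707, TUBB6 at chr18:12307669-12344320 and TUBG1 at chr17:42609676-42615234.

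The share of TPM on protein-coding genes lay between 51.8% and 61.3%, and it was highest in CR31B replicate 1 (at most 52.3% in the other CR31B libraries). This library was also the highest of the CR31B libraries in 9 of the 10 tubulin genes. Values of these 10 genes are therefore given below without it wherever a call depends on it. Of 10 markers of sympathetic neuroblasts, 9 had a mean of at least 1 TPM (TH, the exception, reached at most 1.19 TPM), with a summed level from 1281 to 1859 TPM in CR31B and from 1198 to 1429 TPM in DMSO. Of 8 markers of glia and Schwann cells, none reached a mean of 1 TPM, and SOX10 and OLIG2 were listed at 0 in all libraries; the sum of that list was at most 2.16 TPM. Of 7 mesenchymal markers, 3 reached 1 TPM (sums from 13.2 to 26.2 TPM), and of 4 immune and endothelial markers none did. The label names brain as the tissue, whereas the glial markers of brain were at or near 0.

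Levels below are listed in the order of replicates 1 to 4 within each treatment. The question was which tubulin footprints differed between CR31B and DMSO. In limma, with Benjamini-Hochberg adjustment across 11778 tested genes, none of the 10 tubulin genes passed an adjusted p of 0.05, beside 7.46% of all tested genes (879 genes, 3.45% higher and 4.02% lower in CR31B). At an unadjusted p of 0.05, 2 of the 10 passed, beside 23.4% of tested genes: TUBB, lower in CR31B, and TUBB4B, higher. When the replicate number was fitted as a block, both passed after adjustment, 2 of 10 beside 12.3% of tested genes. Of these, 1 was higher beside 5.77% and 1 lower beside 6.56%. The labels do not say what a replicate number marks, so that fit is an alternative only. Pairs below are libraries of the same number. The median log2 fold change (log2 of TPM + 1, CR31B over DMSO) of the 10 genes was 0.059, beside 0.029 over all genes tested, with 6 genes above 0 and 4 below. Without CR31B replicate 1 that median was -0.061, with 4 above and 6 below.

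**Figure D2:**
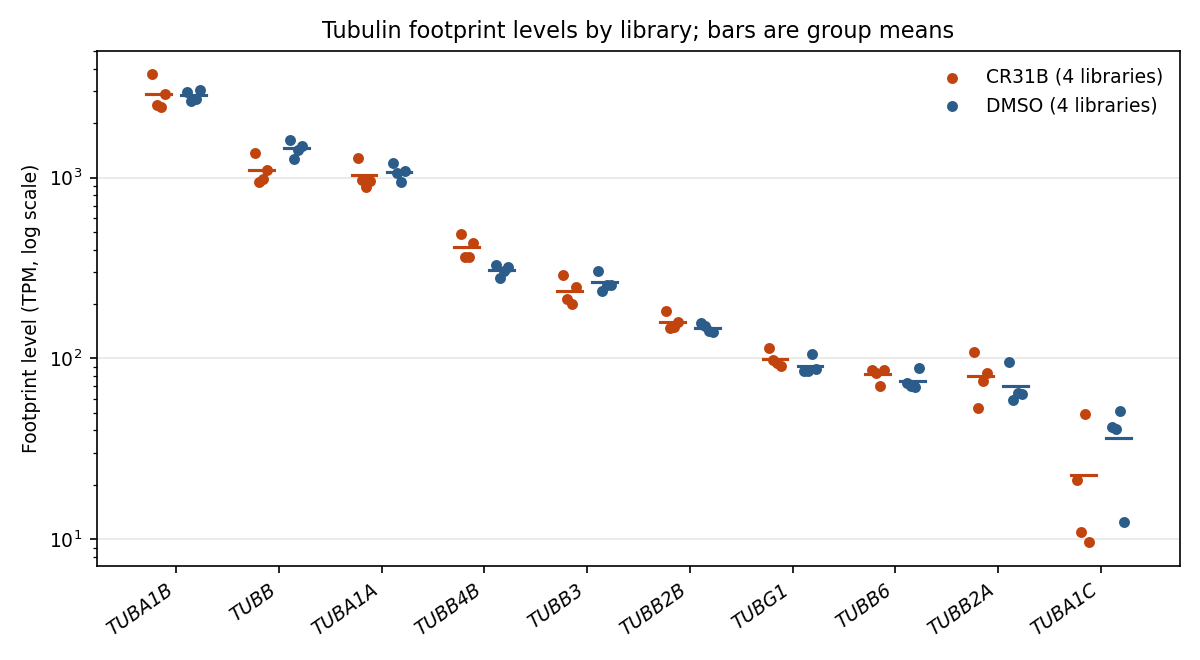
Footprint levels (TPM, log axis) of the 10 tubulin genes in each of the 4 CR31B and 4 DMSO libraries, with bars at the group means. TUBB4B is the only one of the 10 in which all CR31B libraries lie above all DMSO libraries, and TUBA1C has the widest spread within groups.

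The beta isotype TUBB (ENSG00000196230.14), expressed in most cell types, reached 1373, 946, 983 and 1108 TPM under CR31B and 1610, 1270, 1426 and 1500 TPM under DMSO. CR31B was lower in each of the 4 replicate pairs, and the groups overlapped only because CR31B replicate 1 stood above DMSO replicate 2. The means were 1103 ± 193 and 1451 ± 143 TPM (SD, n = 4 each). On the log2 scale the difference was -0.41, with an SE of 0.15 and a 95% confidence interval of -0.74 to -0.074. The limma adjusted p was 0.134, and the exact permutation p was 0.0571. With the replicate number as a block the limma adjusted p was 0.0329, without CR31B replicate 1 it was 0.0489 (log2 fold change -0.52), and on TPM rescaled over protein-coding genes it was 0.0406; over 19 alternatives it ran from 0.0329 to 0.311.

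TUBB4B (ENSG00000188229.6), the other broadly expressed beta isotype and a main component of cilia, went the other way. It reached 489, 364, 366 and 435 TPM under CR31B and 328, 277, 305 and 321 TPM under DMSO. All CR31B libraries lay above all DMSO libraries, and no other of the 10 genes had separate groups. Among tested genes 16.2% had separate groups, 8.07% with CR31B higher and 8.14% with CR31B lower. The means were 414 ± 59.96 and 308 ± 22.6 TPM (SD, n = 4 each). The difference was 0.42 on the log2 scale, with an SE of 0.13 and a 95% confidence interval of 0.13 to 0.70. The limma adjusted p was 0.0774 and the exact permutation p was 0.0286, the smallest that 4 against 4 libraries can give. Fitted with the block, it passed with a limma adjusted p of 0.0258. The adjusted p was 0.0137 after rescaling over protein-coding genes, 0.0160 after quantile normalization, 0.0473 with median-of-ratios factors and 0.0383 with weights per library, and 0.133 without CR31B replicate 1; over 19 alternatives it ran from 0.0137 to 0.195. Its direction and that of TUBB were the same in all 19 alternatives. This was partly fixed in advance, as changing the filter, the trend or the block, or summing near-identical isotypes, left both estimates unchanged. The fits with single libraries left out also share most of their data.

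**Figure D3:**
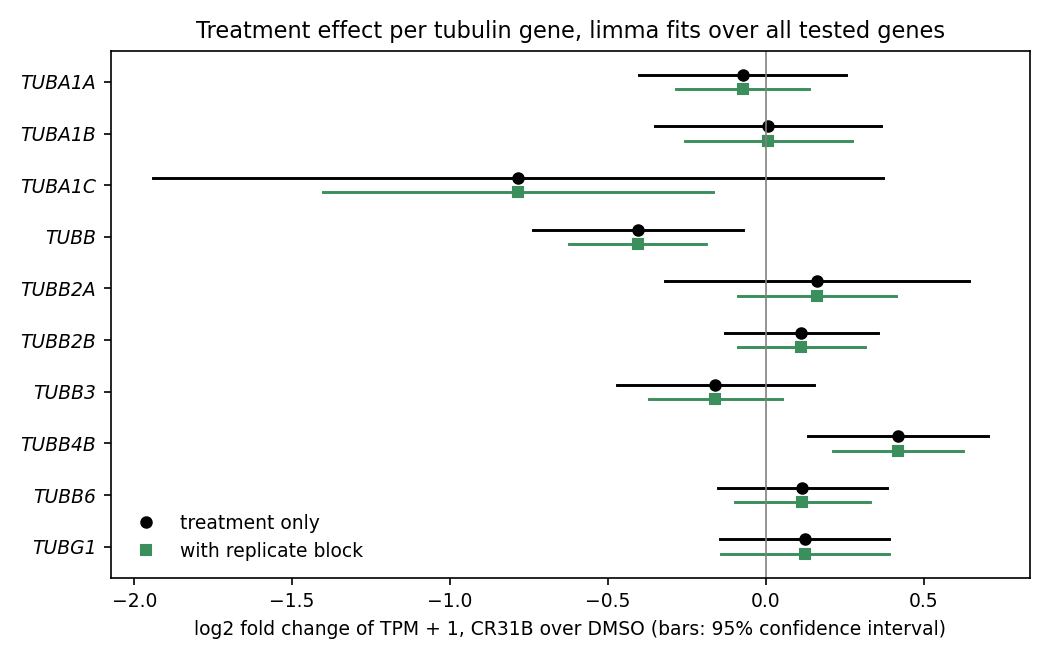
Log2 fold change of TPM + 1 (CR31B over DMSO) for each tubulin gene with its 95% confidence interval, from the limma fit with treatment only (black) and with the replicate number as a block (green). In both fits the interval of TUBB lies below 0 and that of TUBB4B above 0, and that of TUBA1C is the widest and lies below 0 only with the block.

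A share within the beta class does not depend on the sum of the library, and here TUBB and TUBB4B separated the groups. TUBB took 54.3%, 52.4%, 53.3% and 52.3% of the summed TPM of the 6 beta genes under CR31B, and 62.7%, 61.5%, 63.0% and 63.3% in DMSO. TUBB4B took 19.3%, 20.2%, 19.8% and 20.5% in CR31B and 12.8%, 13.4%, 13.5% and 13.5% in DMSO. Neither share overlapped between groups. The mean difference was -9.57 percentage points for TUBB and 6.67 for TUBB4B, or -9.98 and 6.88 without CR31B replicate 1. Among ratios of 2 single genes averaging 10 TPM or more, 21.3% did not overlap between groups. No such background was computed for shares. Both genes were singled out by their own differences, so their shares are no separate result. The remaining shares moved less: TUBB2B took 7.76% ± 0.443 under CR31B and 6.40% ± 0.606 under DMSO (SD, n = 4 each), TUBB2A 3.81% ± 0.592 and 3.02% ± 0.471, TUBB6 3.98% ± 0.496 and 3.27% ± 0.396, and TUBB3 11.4% ± 0.429 and 11.4% ± 0.471. For these 4 genes the groups overlapped. Because shares of 1 class sum to a whole, a lower share of TUBB raises the others.

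**Figure D4:**
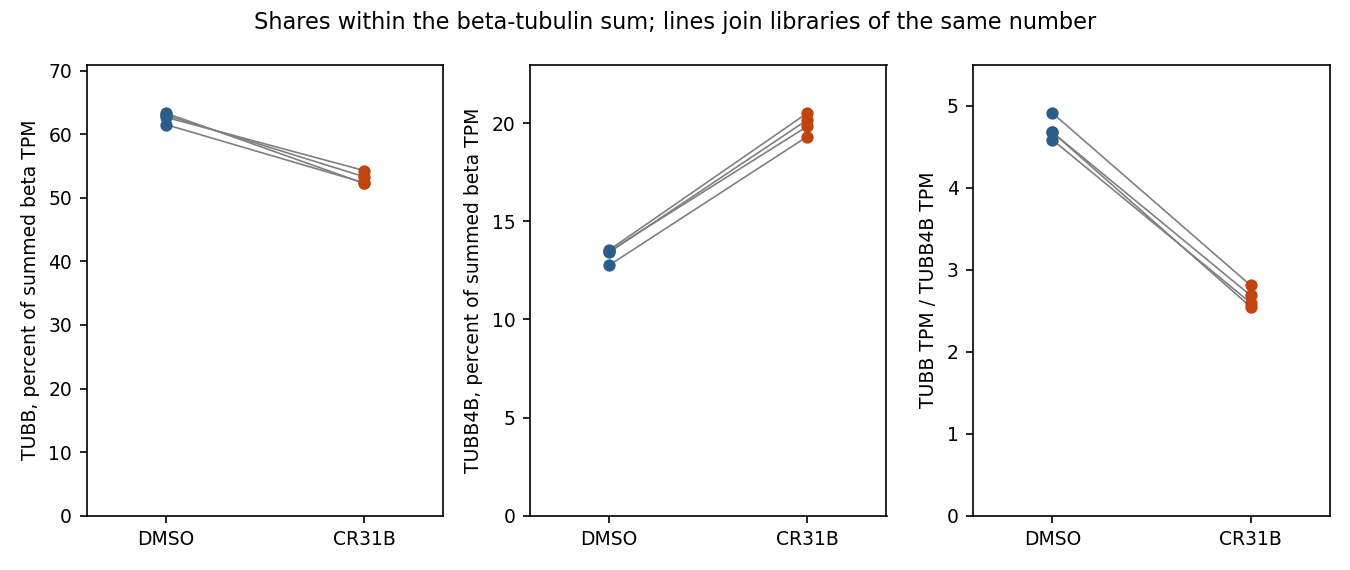
TUBB and TUBB4B as percent of the summed TPM of the 6 beta-tubulin genes, and the ratio of TUBB to TUBB4B, in each library; grey lines join CR31B and DMSO libraries of the same replicate number and all axes start at 0. TUBB takes 52.3% to 54.3% in CR31B and 61.5% to 63.3% in DMSO, and the ratio is 2.55 to 2.81 against 4.58 to 4.91.

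The ratio of TUBB to TUBB4B was 2.81, 2.60, 2.69 and 2.55 under CR31B, against 4.91, 4.58, 4.68 and 4.68 under DMSO. Its spread was small beside that of the genes themselves: the coefficient of variation in CR31B was 4.33% for the ratio, 17.5% for TUBB and 14.5% for TUBB4B. Such a spread was not particular to this ratio. In CR31B it was 3.45% for TUBB3 to TUBB4B and 3.62% for TUBA1B to TUBB, and up to 94.2%, for TUBA1C to TUBB3. CR31B replicate 1, the highest CR31B library in both genes, also had the highest CR31B ratio, still far below every DMSO ratio. The ratio changed by -0.82 on the log2 scale, a size reached by 9.86% of all pairs of genes averaging 10 TPM or more. TUBB and TUBB4B were the 2 tubulin genes with an unadjusted limma p under 0.05, and they differed in opposite directions. A share over unselected pairs therefore does not measure how unusual their ratio is. When the TPM of pseudogenes named for these genes was added to the parents, the ratio was 2.75 ± 0.127 under CR31B and 4.77 ± 0.107 under DMSO (SD, n = 4 each), still without overlap.

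Of the 45 ratios between tubulin genes, 12 did not overlap between groups, or 26.7%, against 21.3% of all such pairs of genes. TUBB or TUBB4B stood in 17 of the 45 ratios and in 11 of these 12. TUBB to TUBB3, for instance, was 4.76, 4.44, 4.92 and 4.47 in CR31B and 5.26, 5.35, 5.56 and 5.88 in DMSO, while TUBB3 to TUBB4B was 0.590, 0.584, 0.546 and 0.569 in CR31B and 0.933, 0.856, 0.840 and 0.795 in DMSO. Both genes therefore shifted against TUBB3, in opposite directions. The remaining ratio of the 12 was TUBB2B to TUBB3. TUBB and TUBB4B were singled out by their own differences, so their place in these ratios is no separate result.

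TUBB3 (ENSG00000258947.8), the beta isotype used as a neuronal marker, was at 288, 213, 200 and 248 TPM in CR31B and 306, 237, 256 and 255 TPM in DMSO. It was lower in each of the 4 pairs, yet the groups overlapped (log2 fold change -0.16, SE 0.14, adjusted p of 0.543 in limma). TUBB2B (ENSG00000137285.11), linked to cortical malformation when mutated, was at 184, 147, 150 and 159 TPM in CR31B and 156, 150, 143 and 141 TPM in DMSO (log2 fold change 0.11, SE 0.11, adjusted p of 0.588 in limma). Its near copy TUBB2A (ENSG00000137267.7) was at 109, 53.3, 74.9 and 83.1 TPM and at 95.5, 59.3, 64.0 and 63.4 TPM (log2 fold change 0.16, SE 0.22, adjusted p of 0.709 in limma), and without CR31B replicate 1 the estimate was -0.00017. Summed into 1 row, the pair differed by 0.13 on the log2 scale, with an adjusted p of 0.625 in limma. TUBB6 (ENSG00000176014.13), the isotype with the largest share of windows of its own, was at 86.6, 83.1, 70.2 and 86.5 TPM in CR31B and 73.1, 70.3, 69.3 and 88.8 TPM in DMSO, with overlapping groups (log2 fold change 0.12, SE 0.12, adjusted p of 0.623 in limma).

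The alpha class was led by TUBA1B (ENSG00000123416.15), the main alpha isotype of dividing cells, at 3737, 2535, 2463 and 2889 TPM in CR31B and 2990, 2643, 2737 and 3057 TPM in DMSO. CR31B replicate 1 was the highest of all libraries and the other 3 lay within or below the DMSO range. The estimate of 0.0068 on the log2 scale had a 95% confidence interval of -0.35 to 0.36 and an adjusted p of 0.983 in limma. It was -0.12 without CR31B replicate 1, -0.013 after quantile normalization and -0.016 with median-of-ratios factors, so it had no stable direction. An antisense gene, TUBA1B-AS1, contains the reverse complement of 895 of the 1329 TUBA1B windows; it ranged from 67.4 to 340 TPM over the libraries (log2 fold change 0.14, limma adjusted p of 0.893), and the strand setting is not given in the sources used here.

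TUBA1A (ENSG00000167552.15), the alpha isotype of postmitotic neurons, was at 1292, 974, 886 and 963 TPM in CR31B and 1213, 1062, 941 and 1089 TPM in DMSO. The groups overlapped (log2 fold change -0.074, SE 0.15, adjusted p of 0.816 in limma). The 3 alpha genes summed into 1 row differed by -0.020 on the log2 scale (adjusted p of 0.957 in limma). TUBA1B took from 70.4% to 74.8% and TUBA1A from 24.9% to 28.6% of the alpha sum over the 8 libraries, both with overlapping groups.

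TUBA1C (ENSG00000167553.16) had the widest spread within groups. Its levels were 21.3, 10.9, 49.0 and 9.63 TPM under CR31B and 41.6, 41.0, 51.0 and 12.4 TPM under DMSO. Libraries of the same number were close in replicates 3 and 4 and far apart in replicate 2, and CR31B was lower in all 4 pairs. The log2 fold change was -0.79 (SE 0.52, limma adjusted p of 0.405, and 0.0971 with the replicate block). Its adjusted p ran from 0.0971 to 0.691 over the alternatives that kept it as a row of its own. The value was -1.24 without CR31B replicate 3, -1.22 without DMSO replicate 4 and -0.50 without CR31B replicate 4, and none of these passed. Its coefficient of variation was 80.5% in CR31B and 45.7% in DMSO. The antisense gene TUBA1B-AS1, at a mean of 215 TPM, also holds the reverse complement of 568 of the 1323 TUBA1C windows and 602 of the 1329 TUBA1A windows; its part in these values was not tested. Inferred from what 1 read is worth per library and transcript length, TUBA1C rested on 1450 to 11333 reads and the other 9 genes on 4541 to 397448 reads per library. These are reads as the authors' processing assigned them among near-identical genes.

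The gamma-tubulin TUBG1 (ENSG00000131462.9), which nucleates microtubules at centrosomes, was at 115, 97.7, 93.8 and 90.6 TPM in CR31B and 84.7, 85.1, 106 and 87.8 TPM in DMSO. DMSO replicate 3 stood above all CR31B libraries but the first, so the groups overlapped (log2 fold change 0.12, SE 0.12, adjusted p of 0.593 in limma).

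Together the alpha and beta genes took from 0.524% to 0.758% of all TPM, with overlapping groups. The summed alpha level was 3958 ± 754 TPM in CR31B and 3970 ± 270 TPM in DMSO, and the summed beta level 2075 ± 333 and 2316 ± 211 TPM (SD, n = 4 each). The ratio of the alpha to the beta sum was 2.00, 1.95, 1.84 and 1.82 in CR31B and 1.65, 1.82, 1.65 and 1.76 in DMSO. All CR31B ratios lay above all DMSO ratios, at means of 1.90 ± 0.0838 and 1.72 ± 0.0821, although the closest values differed little (1.823 and 1.816). Of the ratios between 2 single genes averaging 10 TPM or more, 21.3% did not overlap. TUBB made up 52.3% to 63.3% of the beta sum over the libraries, so this ratio is not separate from the difference in TUBB.

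In level (TPM, per length of transcript), the order of the means over all libraries was TUBA1B, TUBB, TUBA1A, TUBB4B, TUBB3, TUBB2B, TUBG1, TUBB6, TUBB2A and TUBA1C. TUBB lay above TUBA1A in every DMSO library, with separate ranges, whereas in CR31B their ranges overlapped. TUBB4B lay above TUBB3 in every library, with ranges that overlapped in DMSO and were separate in CR31B. TUBB2A overlapped TUBG1 and TUBB6 in both groups, whereas TUBG1 and TUBB6 overlapped in DMSO and were separate in CR31B. TPM divides by the whole transcript while ribosomes cover mainly the coding part, which is 50.0% of the TUBB transcript, 45.0% of that of TUBA1C and from 65.0% to 84.2% in the other 8 genes, so TUBB and TUBA1C are placed lower than per coding length.

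The mRNA leaders, the part before the start codon, were described because rocaglates act on purine-rich RNA. The longest run of A or G in the leader, on the strand of the transcript, was 13 nt in TUBA1A, 12 nt in TUBB, 10 nt in TUBB2B, 8 nt in TUBB4B, 6 nt in TUBA1C, TUBB3, TUBB6 and TUBG1, and 5 nt in TUBA1B and TUBB2A. The median over 10088 tested genes was 8 nt. A run at least as long was present in 14.7% of their leaders for TUBA1A, 19.5% for TUBB, 34.6% for TUBB2B and 55.3% for TUBB4B. The share was 79.1% for the genes with 6 nt and 89.4% for those with 5 nt. The leader was 306 nt long in TUBB and 148 nt in TUBB4B, with a GC content of 59.5% and 64.9%, beside medians of 206 nt and 66.5%. Longer leaders have more room for such runs, and a run is a description of the sequence only.

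Genes that act on tubulin were taken from 7 lists: other tubulins, the gamma-tubulin ring, tubulin folding, decay of tubulin mRNA, tubulin-modifying enzymes, microtubule-associated proteins and severing enzymes. Of their 97 genes 77 were tested, and 7 passed an adjusted p of 0.05 in limma (9.09%, beside 7.46% of all genes), 2 higher and 5 lower in CR31B. With the replicate block 11 of the 77 passed, 3 higher and 8 lower, beside 12.3% of all genes. By list, 1 of 4 other tubulins, 0 of 12 ring genes, 1 of 13 folding genes, 1 of 10 decay genes, 0 of 14 modifying enzymes, 4 of 18 microtubule-associated genes and 0 of 6 severing enzymes passed. The median log2 fold change was -0.22 among the microtubule-associated genes, where 2 of 18 were above 0, and between -0.12 and 0.16 in the other lists. Over all genes tested it was 0.029. Among the 18 microtubule-associated genes 1 passed as higher and 3 as lower, and the list as a whole was not tested.

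**Figure D5:**
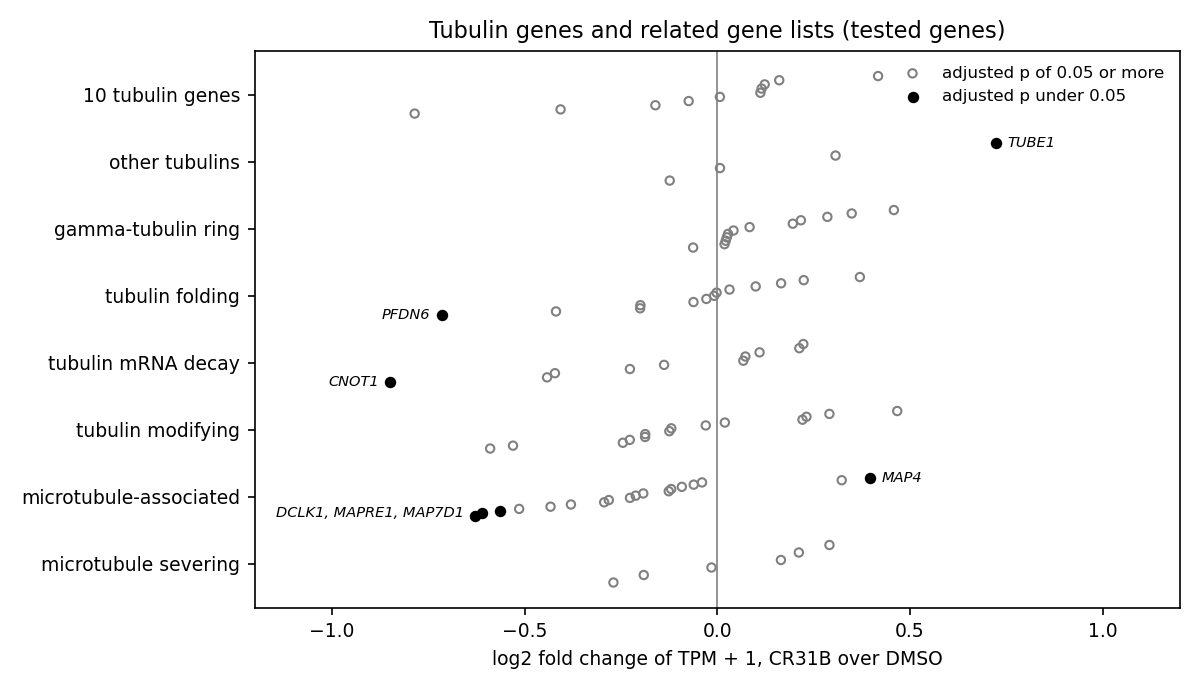
Log2 fold change of TPM + 1 (CR31B over DMSO) of every tested gene in the tubulin set and in 7 lists of related genes; filled points passed a limma adjusted p of 0.05 and are named. No tubulin gene of the set of 10 passed. Of 18 microtubule-associated genes 16 lie below 0, beside a median of 0.029 over all genes tested.

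PFDN6, a subunit of the prefoldin complex that hands nascent tubulin and actin to the chaperonin, had the clearest difference of these genes. It was at 114, 106, 112 and 97.8 TPM in CR31B and 169, 181, 186 and 171 TPM in DMSO, and fell by 0.71 in log2 units, with CR31B lower in every pair (SE 0.10, adjusted p of 0.00328 in limma). The other 5 prefoldin subunits did not pass. MAPRE1, which encodes the plus-end tracking protein EB1, was at 74.4, 63.3, 62.3 and 57.2 TPM in CR31B and 101, 97.7, 89.5 and 106 TPM in DMSO, and fell by 0.61 (SE 0.11, adjusted p of 0.0112 in limma). Both passed in all 19 alternatives.

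The other calls were less stable. CNOT1, the scaffold of the CCR4-NOT deadenylase, was at 31.9, 23.99, 19.3 and 18.8 TPM in CR31B and 49.8, 48.3, 37.5 and 34.9 TPM in DMSO, a log2 fold change of -0.85 (limma adjusted p of 0.0217). TTC5, named here outside the naming rule because of its role, was at 14.1 ± 1.59 and 13.4 ± 1.35 TPM (SD, n = 4 each; limma adjusted p of 0.781). DCLK1, a doublecortin-like kinase on microtubules, changed by -0.63 and MAP7D1, a microtubule-associated partner of kinesin, by -0.56 (limma adjusted p of 0.0217 and 0.0278). MAP4, a broadly expressed microtubule stabiliser, rose from 28.3 ± 1.10 to 37.6 ± 2.83 TPM (SD, n = 4 each; log2 fold change 0.40, limma adjusted p of 0.0417). TUBE1, the epsilon-tubulin of centrioles, rose from 3.41 ± 0.621 to 6.35 ± 1.59 TPM (log2 fold change 0.72, limma adjusted p of 0.0381). With any 1 of the 8 libraries left out, CNOT1 and DCLK1 passed in 4 of 8 cases, MAP7D1 in 2, TUBE1 in 1 and MAP4 in 0, and none changed sign. Without CR31B replicate 1, 0 related genes passed as higher, so neither MAP4 nor TUBE1 passed there.

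Of the list members with the highest mean, TBCA, a tubulin folding cofactor, was at 354 ± 40.1 TPM under CR31B and 375 ± 86.1 TPM under DMSO. TUBD1, the delta-tubulin, was at 13.6 ± 1.15 and 14.9 ± 1.71 TPM. MZT2B, a small protein of the gamma-tubulin ring, was at 49.3 ± 10.7 and 35.3 ± 5.11 TPM (SD, n = 4 each), with a limma adjusted p of 0.127, and 0.0369 with the replicate block. CNOT2 and TTLL12, the most abundant members of the decay and modifying lists, had log2 fold changes of 0.22 and 0.020, and neither passed.

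The genes outside the set whose levels over the 8 libraries were most like the mean of the 10 tubulin genes were UQCRC1 (Pearson's r of 0.962, Spearman's rho of 0.833), HTRA2 (0.957, 0.929), L1CAM (0.955, 0.929), MAU2 (0.953, 0.786) and MAN1B1 (0.952, 0.905). They were chosen by r among genes averaging 10 TPM or more, so these values describe the choice. All 5 had a limma adjusted p above 0.5 and were highest in CR31B replicate 1, the library with the highest share of protein-coding TPM.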

How the data were processed

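Ribosome-protected fragments of 28 to 30 nt were sequenced, per the labels' protocols. The authors deposited TPM values for 60651 genes in 8 libraries, 1 column each. The submitters' processing notes name cutadapt 3.2, Bowtie2 2.3.4.1, STAR 2.7.1a, RSEM 1.2.28 and DESeq2 1.32.0 and the build GRCh38; the annotation, the strand setting and the assignment of reads with several positions are not given in the sources used here. Depth is not stated; reads were estimated from the spacing of low TPM values in genes with 1 transcript in GENCODE release 29.

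Values were analysed as log2(TPM + 1), which understates changes of low genes. The 11778 genes averaging 1 TPM or more were fitted with limma 3.58.1 in R 4.3.3 (lmFit, eBayes with trend, treatment only), with Benjamini-Hochberg adjustment over all of them; the fit was tested on simulated data. Permutation tests were exact and two-sided over 70 assignments. Sums, shares and ratios over tubulin genes were given no test. Python 3.11.15, NumPy 2.4.6, SciPy 1.17.1, pandas 2.3.3, matplotlib 3.10.9 and Biopython 1.88 served for the rest; windows and identities came from 1 principal transcript per gene.

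Libraries with the same replicate number deviated together from their group means (correlations across tested genes of 0.333, 0.324, 0.301 and 0.105 for replicates 1 to 4, and -0.206 to 0.134 for libraries of different numbers, with CR31B replicate 4 closer to DMSO replicate 1 than to DMSO replicate 4). Each same-number value was above 0.1, so the numbers were treated as pairs in an alternative fit. What such a number marks is not in the labels. The tubulin genes and lists were chosen with earlier results of these data known. Named genes were the 10 tubulins, list members that passed (up to 6 a list), the most abundant member of each list, the 3 most abundant tubulin pseudogenes, overlapping antisense or readthrough genes, and the 5 genes most alike; 1 gene under this rule is not reported here. Alternatives changed the pseudocount, filter, scaling, fit, weights and row definitions, or left out each library.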

Additional observations from a re-analysis of the deposited data

Results flagged for a closer look

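Among the 20 groups of 4 libraries (10 genes in CR31B and in DMSO), 2 held a library that stood apart, in that its distance to the closest other library, divided by the range of the group, was above Dixon's 95% critical value for 4 samples; chance would give about 1. The measured shares of the range were 0.869 for TUBB2A and 0.861 for TUBG1. TUBB2A was at 95.53 TPM in DMSO replicate 1, against 59.27 to 64.03 TPM in the other DMSO libraries. TUBG1 was at 106.49 TPM in DMSO replicate 3, against 84.73 to 87.75 TPM in the others. Without DMSO replicate 1 the log2 fold change of TUBB2A was 0.31 (limma adjusted p of 0.443). Without DMSO replicate 3 that of TUBG1 was 0.20 (limma adjusted p of 0.354). That library alone made the TUBG1 groups overlap, so leaving it out separated them by construction.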

How the results depend on the processing

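The number of tubulin genes that passed was 2 after rescaling over protein-coding genes, 1 after quantile normalization, 1 with median-of-ratios factors and 1 with weights per library; it ran from 0 to 1 when single libraries were left out, and the 1 was TUBB, without CR31B replicate 1. The replicate block, with the numbers taken as pairs, gave 2, TUBB lower and TUBB4B higher. For all genes, 442 passed with no filter on low values, 1453 with the replicate block, 1321 with weights per library, and 405 to 785 with single libraries left out. For the related genes, an outcome added after seeing the data, 3 passed with no filter, 11 with the replicate block and 13 with weights per library. It was 5 without CR31B replicate 1 or 2, 4 without CR31B replicate 3 or DMSO replicate 3, 3 without DMSO replicate 2 or 4, and 2 without CR31B replicate 4 or DMSO replicate 1. The estimate of TUBA1B changed sign after quantile normalization (-0.013), with median-of-ratios factors (-0.016), with weights per library (-0.013) and when the alpha genes were summed (-0.020), and ran from -0.12 to 0.080 with single libraries left out; that of TUBB2A ran from -0.00017 to 0.34. Fewer samples or more genes tested can lower a count, but without CR31B replicate 1 that of the tubulin genes rose from 0 to 1. Causes of these changes were not tested. The replicate block changed no other tubulin call.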

Other observations

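The processed pseudogene TUBBP1, which holds copies of 660 of the 1308 TUBB windows, reached 4.81, 99.5, 22.5 and 13.2 TPM under CR31B (replicates 1 to 4) and 6.28, 32.5, 17.95 and 9.36 TPM under DMSO. Replicate 2 was the highest and replicate 1 the lowest in both groups. Its log2 fold change was 0.50 (SE 0.75, limma adjusted p of 0.741). With its TPM and that of the other pseudogenes named for TUBB added, TUBB had a log2 fold change of -0.37 (limma adjusted p of 0.138). The other 2 tubulin pseudogenes with a mean of at least 1 TPM were even between libraries: TUBA5P ranged from 3.70 to 6.13 TPM and TUBAP2 from 3.37 to 4.24 TPM. Of 52 tubulin pseudogene rows, 3 were tested and none passed.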
